A study of Mus musculus with 4 samples.

Results

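Kinesins are motor proteins, most of which walk along microtubules. The genes described here are the kinesin heavy chains and the kinesin light chains of mouse. Members were the rows whose symbol is Kif followed by a number and an optional letter, or is Kifc1 to Kifc3 or Klc1 to Klc4, counted once per Entrez gene. This gave 44 of the 27178 genes of the table, of which 42 had at least 1 read and 2, Kif2b and Kif12, had none in any library. By known role, 10 were placed with axonal transport, 13 with mitosis and 21 with neither. The samples were neural crest-derived cells of the embryonic gut of Wnt1-tdT mice at 11.5 days post coitum, sorted for the red reporter that this crest-active driver switches on. There were 2 libraries of cells from the invasive wavefront and 2 libraries of cells trailing 1 to 1.5 mm behind it. All 4 libraries carry the same reporter, and the labels do not say how many embryos were pooled or whether replicates came from separate embryos. The p-values therefore reflect counting error and the spread between libraries, part of which may be technical. The tests share that spread across genes, so it is not each gene's own spread alone.

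Kinesin heavy chains share a motor domain, which in most of them turns ATP hydrolysis into steps along the microtubule. In neurons, kinesin-1 (Kif5 heavy chains with Klc light chains), kinesin-2 (Kif3) and kinesin-3 (Kif1) carry vesicles, organelles and protein complexes from the cell body down the axon. In dividing cells a different group builds the spindle, aligns and moves chromosomes and completes cytokinesis, and their genes are transcribed mainly late in the cell cycle. At the stage studied, crest cells of the gut divide, migrate and begin to form neurons.

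A sequence difference between the groups lies in their promoters and does not depend on the expression values. Many genes expressed in G2 and mitosis carry a cell cycle homology region, a short element near the start site that is bound by the DREAM and MuvB complexes. Its letters, TTTGAA or TTCGAA on either strand, were searched in the 250 bases before and 50 bases after each annotated start (RefSeq, GRCm38.p6), where 35 of the 44 members had a window. They were found in 10 of 12 mitotic kinesins, 1 of 7 axonal kinesins and 3 of 16 other kinesins, and in 21.7% of the 27025 genes with a window. Within 25 bases of the annotated start, a distance chosen after the positions were seen, they were found in 8 of the 12 mitotic kinesins, 0 of the 7 axonal kinesins and 3.39% of all genes with a window. The mitotic kinesins with a window but no match were Kif18a and Kif2b, and the axonal kinesin with a match was Kif1a. A match is a run of letters and was not tested as a binding site. Windows of 30 bases around the match nearest the start are shown for 4 mitotic kinesins whose RNA is described below. They run in the direction of transcription, with the match in capitals.
Kif11 (chr19:37376351-37376380, plus strand, reverse match): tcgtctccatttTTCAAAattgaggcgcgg
Kif15 (chr9:122951050-122951079, plus strand, reverse match): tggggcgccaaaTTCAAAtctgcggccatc
Kif18b (chr11:102925104-102925133, minus strand, forward match): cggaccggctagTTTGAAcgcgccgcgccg
Kif22 (chr7:127042420-127042449, minus strand, reverse match): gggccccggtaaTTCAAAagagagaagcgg
In these 4 promoters the match begins 19 bases before the start in Kif11 and Kif15, 17 bases before it in Kif22 and 3 bases after it in Kif18b.

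The libraries held 535636 and 258457 reads at the wavefront and 511074 and 447224 in trailing cells. Wavefront replicate 2 stood apart: ribosomal RNA took 55.5% of its reads, against 15.6 to 26.1% in the other 3 libraries. It also held 110 reads of 7 erythroid markers, where the other 3 libraries held 0 to 2. Values below are whole reads or scaled CPM, which are reads relative to the library size adjusted by trimmed mean of M-values (TMM). Fold changes are wavefront over trailing on the log2 scale, from edgeR's quasi-likelihood test (the count test) with standard errors (SE), and adjusted p are Benjamini-Hochberg over all genes tested.

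Kif5a was the 1 kinesin that passed the count test: its RNA was read in both trailing libraries and in neither wavefront library. The count test could be run on 23 of the 44 members, 8 axonal, 10 mitotic and 5 other, the rest having too few reads, and it called 1 of them, lower at the wavefront, where 1.74% of the 5759 genes tested were called, 1.34% as lower and 0.399% as higher. The other axonal kinesins mostly had lower values at the wavefront and the mitotic kinesins mostly higher values, but none of these differences passed. Limma on log2(CPM + 1), the test made on the CPM values themselves, called 0 of 36 members (Kif5a adjusted p = 0.607), with 5 at an unadjusted p under 0.05, and 0% of the 12519 genes it tested, with 858 at an unadjusted p under 0.05. In edgeR 4 of the 23 members had an unadjusted p under 0.05, Kif5a, Klc1, Kif1a and Kif18b, as had 570 of the 5759 genes tested.

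**Figure D1:**
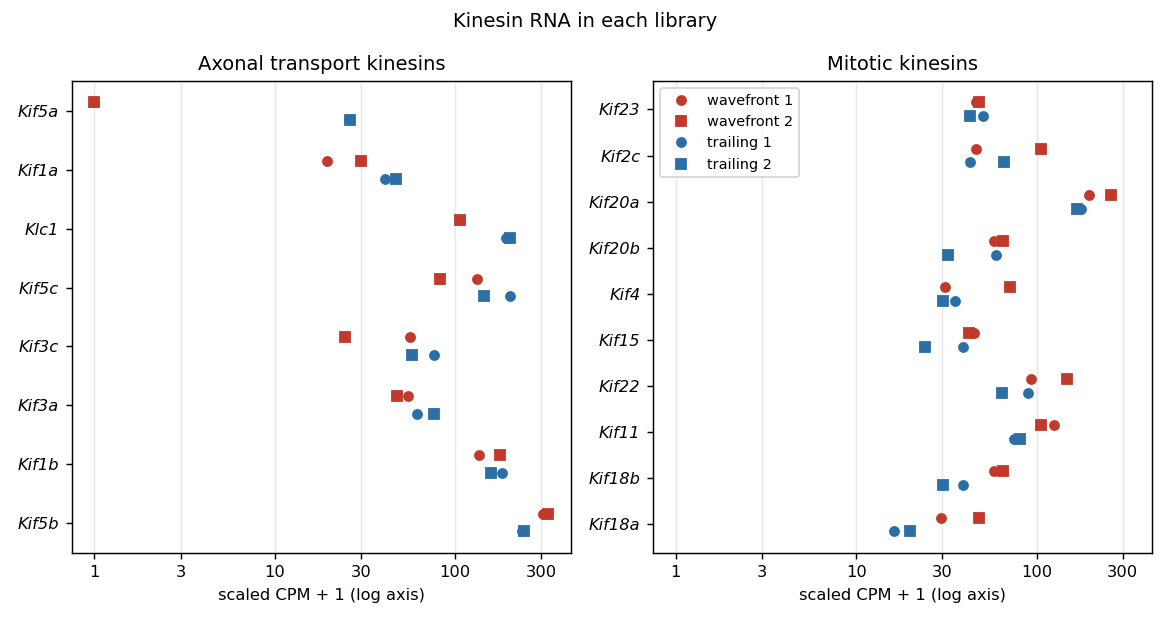
Scaled CPM plus 1, on a log axis, of the 8 axonal and 10 mitotic kinesins of the count test, 1 point per library, with circles for replicate 1 and squares for replicate 2. Wavefront points lie left of trailing points for Kif5a, Kif1a, Klc1, Kif5c, Kif3c and Kif3a, and right of them for Kif5b, Kif20a, Kif15, Kif22, Kif11, Kif18b and Kif18a.

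Of the 3 kinesin-1 heavy chains, Kif5a passed the count test and Kif5c and Kif5b did not. Kif5a, the heavy chain restricted to neurons, lies on chromosome 10 (127225696 to 127263348, minus strand, GRCm38). Its exons overlap no other gene's. It had 0 and 0 reads in the wavefront libraries, against 13 and 12 reads in the trailing libraries, or 24.6 and 25.1 scaled CPM. It passed the count test (edgeR, adjusted p = 0.00311). Only its trailing libraries held enough reads to bring it into that test. With 0 reads in the wavefront group, a floor of 3 reads over the group gives a 6.36-fold lower level at the wavefront. The 95% counting interval, which also covers the error of the 25 trailing reads, allows a ratio of wavefront to trailing of up to 0.208. The fitted log2 fold change, -6.48 ± 1.38 SE, depends on the prior count and is no bound. The call was lost in edgeR without wavefront replicate 1 (adjusted p = 0.373), and without either trailing library, or with all libraries thinned to the shallowest, the gene had too few reads to be tested. Without wavefront replicate 2 it stood (edgeR, adjusted p = 0.0311). DESeq2 gave no adjusted p for it, and an unadjusted p of 0.00456. In the authors' deposited table its p was 0.0159, which adjusts to 1.00 over the genes with a read.

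Kif5c, a heavy chain enriched in neurons, had 78 and 14 reads at the wavefront, against 106 and 68 reads in trailing cells. Scaled, these were 131 and 81.8 CPM at the wavefront and 201 and 143 CPM in trailing cells, so the groups did not overlap, but the difference did not pass (-0.60 ± 0.32 SE; edgeR, adjusted p = 0.55). Kif5b, the heavy chain found in most cell types, had 183 and 56 reads at the wavefront and 124 and 115 reads in trailing cells, or 307 and 327 against 235 and 241 scaled CPM. It was the 1 axonal member of the count test with a value above 0, and it did not pass (0.41 ± 0.31 SE; edgeR, adjusted p = 0.744). Measured against Kif5b within the same library, where scaling plays no part, Kif5c had 0.426 and 0.25 reads per Kif5b read at the wavefront and 0.855 and 0.591 in trailing cells. The comparison with Kif5b was chosen after the values were seen.

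Klc1, the kinesin light chain that links kinesin-1 to cargo in neurons, had 63 and 18 reads at the wavefront and 100 and 95 reads in trailing cells. On the scaled measure its replicates were close together, with 105 ± 0.442 scaled CPM at the wavefront and 194 ± 6.88 scaled CPM in trailing cells (SD, n = 2 each). With 18 reads in wavefront replicate 2, so small an SD does not measure precision. The same holds for the small SDs on few reads given below. It had the lowest adjusted p after Kif5a among the axonal members and did not pass (-0.88 ± 0.31 SE, 95% interval -1.51 to -0.25; edgeR, adjusted p = 0.199). Per Kif5b read, Klc1 had 0.344 and 0.321 reads at the wavefront and 0.806 and 0.826 in trailing cells. Klc2, a light chain of wide expression, was too low to test, with 2 and 0 reads at the wavefront and 1 and 0 in trailing cells.

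Neither kinesin-3 motor of the axonal list, Kif1a or Kif1b, passed. Kif1a, which carries synaptic vesicle precursors and dense core vesicles, had 11 and 5 reads at the wavefront and 21 and 22 reads in trailing cells, or 18.5 and 29.2 against 39.8 and 46.1 scaled CPM. Its groups did not overlap and its difference did not pass (-0.999 ± 0.482 SE; edgeR, adjusted p = 0.481). Kif1b, whose isoforms carry mitochondria and synaptic vesicle precursors, had 80 and 30 reads at the wavefront and 95 and 75 in trailing cells, and its groups overlapped (-0.17 ± 0.31 SE; edgeR, adjusted p = 0.92).

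Of the kinesin-2 subunits, Kif3a had 32 and 8 reads at the wavefront and 32 and 36 in trailing cells (-0.39 ± 0.35 SE; edgeR, adjusted p = 0.82). Kif3a pairs with Kif3b in axons and in cilia. Kif3c, a partner subunit enriched in neurons, had 33 and 4 reads at the wavefront and 40 and 27 in trailing cells (-0.52 ± 0.37 SE; edgeR, adjusted p = 0.72). Scaled, neither gene's groups overlapped, both being lower at the wavefront. Exons of Kif3c overlap those of 1110002L01Rik, on the other strand, by 2617 bases, and this type of kit does not mark strand, so part of these reads may belong to either gene. Kif3b was below the filter, with 5 and 3 reads at the wavefront and 9 and 4 in trailing cells.

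Over the axonal kinesins with a read, 6 of 10 were lower at the wavefront with no overlap between the groups, as were 19.9% of the 14589 genes with a read. Higher without overlap was 1 of 10, as were 12.5%. Among the 5759 genes of the count test, 6 of 8 axonal kinesins were lower, against 20.9%, and 1 of 8 higher, against 18.3%. Of these, Kif5a and Kif1a reached the filter's level in the trailing libraries only, where they were higher. The count among tested genes is therefore no separate support. Without wavefront replicate 2, 7 of the 10 with a read were lower, against 34.6% of genes, and 2 of 10 higher, against 27.2%. The median log2 fold change of the 10, with no filter on low counts, was -0.43, against -0.08 over all genes with a read. In bulk samples, fewer cells of a type and less RNA per cell cannot be told apart. Beside these values, 9 of 10 enteric neuron markers fell in the count test and 1 did not pass, and the markers summed to 828 and 660 scaled CPM at the wavefront and 2877 and 3016 scaled CPM in trailing cells. Their part in the kinesin values was not tested.

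**Figure D2:**
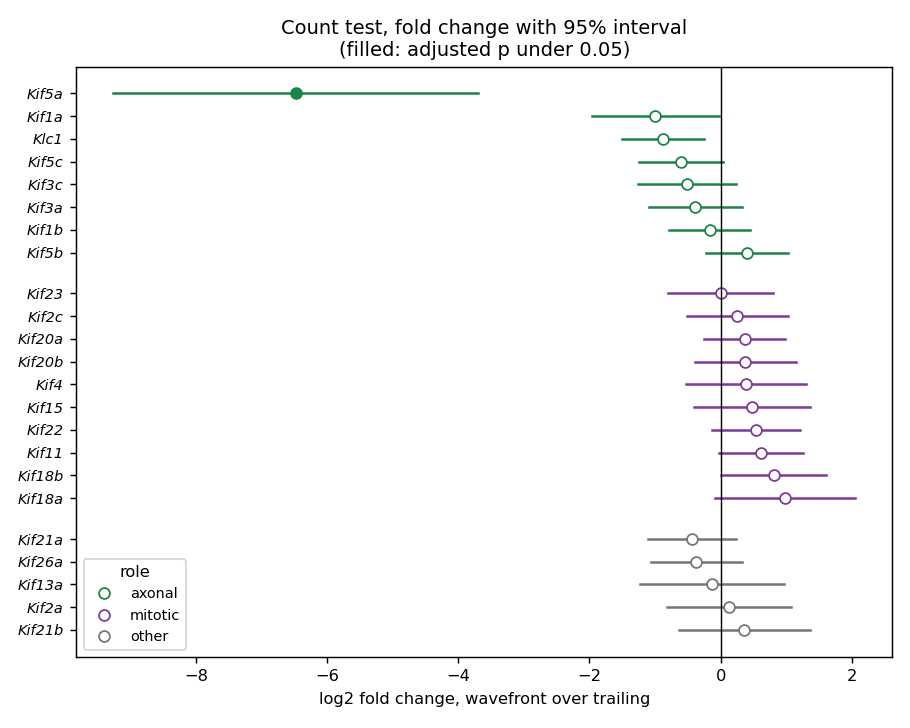
Log2 fold change, wavefront over trailing, of the 23 kinesins of the count test with 95% intervals, grouped by role, with a filled point where the adjusted p is under 0.05. Kif5a is the 1 filled point, at -6.48, and the intervals of 19 of the other 22 members include 0, those of Kif1a, Klc1 and Kif18b lying to one side of it.

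Mitotic kinesins mostly had higher values at the wavefront, and 0 of 10 passed the count test, with 1 at an unadjusted p under 0.05. All 10 that could be tested had log2 fold changes above 0, between 0.00166 in Kif23 and 0.98 in Kif18a, and the smallest adjusted p was 0.491 in edgeR. With library totals alone as the scaling, Kif23 was at -0.19 and the other 9 stayed above 0. Kif18a and Kif18b, kinesin-8 motors that shorten spindle microtubules and help chromosomes align, had the largest values. Kif18a had 17 and 8 reads at the wavefront and 8 and 9 in trailing cells, or 28.6 and 46.7 against 15.2 and 18.9 scaled CPM (0.98 ± 0.53 SE; edgeR, adjusted p = 0.561). Kif18b had 34 and 11 reads at the wavefront and 20 and 14 in trailing cells, or 57.1 and 64.3 against 37.9 and 29.3 scaled CPM (0.81 ± 0.40 SE; edgeR, adjusted p = 0.491). For both genes every wavefront library lay above every trailing library. Kif18a held enough reads for the filter in its wavefront libraries only.

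Kif11, the kinesin-5 motor that pushes spindle poles apart, had 74 and 18 reads at the wavefront and 39 and 38 in trailing cells. Scaled, it had 124 and 105 CPM at the wavefront and 73.9 and 79.6 CPM in trailing cells, with no overlap (0.61 ± 0.32 SE; edgeR, adjusted p = 0.53). Kif15, a kinesin-12 motor that can take over part of the work of Kif11, had 26 and 7 reads at the wavefront and 20 and 11 in trailing cells (0.48 ± 0.44 SE; edgeR, adjusted p = 0.822). Kif22, a chromosome-bound motor that pushes chromosome arms toward the spindle equator, had 55 and 25 reads at the wavefront and 47 and 30 in trailing cells. It scaled to 92.4 and 146 CPM at the wavefront and 89 and 62.9 CPM in trailing cells, so wavefront replicate 1 lay just above trailing replicate 1 (0.54 ± 0.33 SE; edgeR, adjusted p = 0.65).

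Kif20a, Kif20b and Kif23, motors of the central spindle and cytokinesis, had log2 fold changes between 0.00166 and 0.38. Kif20a had 115 and 44 reads at the wavefront and 92 and 79 in trailing cells, or 193 and 257 against 174 and 166 scaled CPM (0.37 ± 0.31 SE; edgeR, adjusted p = 0.792). Its exons overlap those of Cdc23, on the other strand, by 1271 bases, and Cdc23 had 138 and 43 reads at the wavefront and 97 and 106 in trailing cells, so part of these reads may belong to either gene. Kif20b had 34 and 11 reads at the wavefront and 31 and 15 in trailing cells, and Kif23, a subunit of centralspindlin, had 27 and 8 against 26 and 20. Kif23 gave 46 ± 0.991 scaled CPM at the wavefront and 45.6 ± 5.18 scaled CPM in trailing cells (SD, n = 2 each), and the 95% interval of its log2 fold change ran from -0.80 to 0.80.

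Kif2c, which depolymerises microtubules at kinetochores, had 27 and 18 reads at the wavefront and 22 and 31 in trailing cells. Kif4, a chromosome-bound motor that organises the central spindle, had 18 and 12 reads at the wavefront and 18 and 14 in trailing cells. For both, wavefront replicate 2 was the highest library on the scaled measure, at 105 scaled CPM for Kif2c and 70.1 scaled CPM for Kif4, and wavefront replicate 1 lay between the trailing libraries, at 45.3 and 30.2 scaled CPM. Without wavefront replicate 2 their log2 fold changes were below 0, at -0.17 and -0.02. Exons of Kif4 overlap those of Pdzd11, on the other strand, by 832 bases. Among the mitotic members below the filter, Kif14, needed for cytokinesis, had 3 and 4 reads at the wavefront and 2 and 6 in trailing cells. Kifc1, which focuses spindle poles, had 4 and 0 reads at the wavefront and 5 and 3 in trailing cells. Of the 50-base stretches of Kifc1 transcripts, 39.7% also occur in transcripts of other genes, the most in Kifc5b, so its reads are uncertain.

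Over the mitotic kinesins with a read, 6 of 12 were higher at the wavefront with no overlap between the groups, as were 12.5% of all genes with a read. Lower without overlap were 0 of 12, against 19.9%. These tallies depend on the scaling. On the deposited CPM the groups of Kif11, Kif15 and Kif20a overlapped, and those of Kif18a, Kif18b and Kif22 did not. Kif11 had 136 and 69.2 CPM at the wavefront and 75.4 and 84.0 CPM in trailing cells. As CPM outside ribosomal RNA, Kifc1, with few reads, was lower without overlap. Among genes of the count test, 6 of 10 were higher, against 18.3%, and 0 of 10 lower, against 20.9%. Kif18a entered this count through its wavefront libraries only, where it was higher, so the count is no separate support. Without wavefront replicate 1, 10 of the 12 with a read were higher, against 34.1% of genes, and 1 of 12 lower, against 32.8%. Without wavefront replicate 2, 6 of 12 were higher, against 27.2%, and 0 of 12 lower, against 34.6%. The median log2 fold change of the 12, with no filter on low counts, was 0.40, against -0.08 over all genes with a read. Of the markers of other cell types, those of gut mesenchyme and gut epithelium had higher sums in both wavefront libraries. The erythroid sum was high in wavefront replicate 2 alone, and the endothelium and leukocyte sums overlapped between the groups. The 10 gut mesenchyme markers summed to 381 and 882 scaled CPM at the wavefront and 170 and 168 scaled CPM in trailing cells, and the 7 erythroid markers to 1.68 and 643 against 3.79 and 0 scaled CPM. In wavefront replicate 1, 6 of the 7 erythroid markers were at 0, as were 5 and 7 in the trailing libraries. Of the mesenchyme markers 3 could be tested, of which 2 rose and 1 did not pass. In wavefront replicate 1, Col3a1 and Des gave 132 and 73 of the 227 mesenchyme reads. There 4 of the 10 markers were at 0, as were 1 in wavefront replicate 2 and 3 in each trailing library. The 6 gut epithelium markers had 12 and 9 reads at the wavefront and 3 and 3 in trailing cells, the 4 endothelium markers 17 and 7 against 9 and 15, and the 3 leukocyte markers 0 and 1 against 1 and 0. The part of these cells in the mitotic kinesin values was not tested.

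Set against each other within each library, axonal kinesin reads outnumbered mitotic ones in both trailing libraries, and the ratio was lower in both wavefront libraries. The 10 axonal kinesins summed to 487 and 138 reads at the wavefront and 541 and 454 reads in trailing cells. The 13 mitotic kinesins summed to 434 and 166 reads at the wavefront and 330 and 270 reads in trailing cells. The ratio of axonal to mitotic reads was 1.12 (95% exact binomial interval 0.984 to 1.28) and 0.831 (0.658 to 1.05) at the wavefront. It was 1.64 (1.43 to 1.89) and 1.68 (1.44 to 1.96) in trailing cells. Both wavefront libraries lay below both trailing libraries, and the intervals, which cover counting error only, did not overlap between the groups. On the log2 scale the ratio averaged -0.05 ± 0.306 at the wavefront and 0.73 ± 0.0259 in trailing cells (SD, n = 2 each), a difference of -0.78. This difference was larger, -1.14, with the most abundant member of each list, Kif5b and Kif20a, left out. The ratio is free of library scaling but not of the mix of cells, and no test was made of it because it is a score over chosen members.

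**Figure D3:**
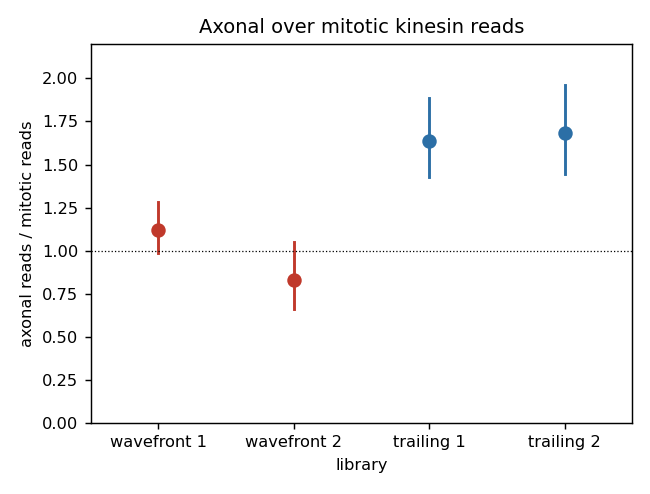
Reads of the 10 axonal kinesins over reads of the 13 mitotic kinesins in each library, with 95% exact binomial intervals and a dotted line at equal numbers. The wavefront libraries lie at 1.12 and 0.831 and the trailing libraries at 1.64 and 1.68.

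Levels of different genes were compared as scaled CPM per kilobase of annotated exon, a level that depends on which isoforms are annotated and, for Kif20a, on the 1271 of its 4338 exon bases that overlap Cdc23. At the wavefront the most abundant kinesin was Kif20a, at 51.9 ± 10.4, followed by Kif5b at 39.8 ± 1.76, Klc1 at 25.9 ± 0.108 and Kif22 at 24.3 ± 7.75 scaled CPM per kilobase (SD, n = 2). In trailing cells it was Klc1, at 47.7 ± 1.69, followed by Kif20a at 39.2 ± 1.41, Kif5b at 29.8 ± 0.548 and Kif5c at 24 ± 5.76 scaled CPM per kilobase (SD, n = 2). Klc1 and Kif22 at the wavefront overlapped across replicates, Kif5b exceeded Kif5c in both trailing libraries, and Kif20a exceeded Klc1 in both wavefront libraries and was below it in both trailing libraries. Kif5c ranked 8 at the wavefront and 4 in trailing cells, and Kif18b ranked 6 and 12.

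**Figure D4:**
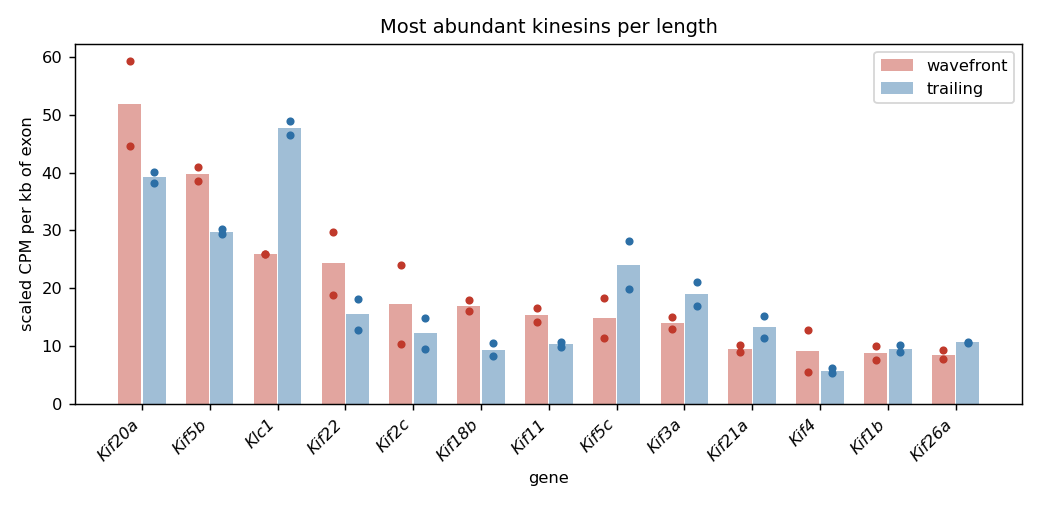
Level of the kinesins ranked 12 or higher in either group, as scaled CPM per kilobase of exon, with bars for the mean of 2 libraries and points for each library. Klc1 is highest in trailing cells, at 47.7, and Kif20a is highest at the wavefront, at 51.9.

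The 21 kinesins of neither group were mostly sparse, and 5 could be tested, with 0 calls and 0 at an unadjusted p under 0.05 in edgeR. Kif21a, a neuronal motor that restrains microtubule growth, had 39 and 10 reads at the wavefront and 39 and 47 in trailing cells, or 65.5 and 58.4 against 73.9 and 98.5 scaled CPM (-0.44 ± 0.34 SE; edgeR, adjusted p = 0.75). Its paralogue Kif21b had 15 and 10 reads at the wavefront and 12 and 15 in trailing cells, with overlapping groups (0.36 ± 0.50 SE; edgeR, adjusted p = 0.89). Kif26a, an atypical kinesin that in mice restrains GDNF-Ret signalling in enteric neurons, had 32 and 11 reads at the wavefront and 39 and 35 in trailing cells. It scaled to 53.7 and 64.3 CPM at the wavefront and 73.9 and 73.4 CPM in trailing cells (-0.37 ± 0.34 SE; edgeR, adjusted p = 0.822). Kif13a, an endosome motor, had 9 and 8 reads at the wavefront and 11 and 15 in trailing cells, and Kif2a, a microtubule depolymerase that trims axon branches, had 19 and 6 against 13 and 17. The groups of both overlapped, and exons of Kif2a overlap those of Dimt1, on the other strand, by 1229 bases.

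Among the 15 others of that group with a read but below the filter, Kif7, a cilium motor of Hedgehog signalling, had 16 and 2 reads at the wavefront and 3 and 7 in trailing cells. Kif13b had 4 and 6 reads at the wavefront and 8 and 5 in trailing cells, and Kifc3 had 6 and 3 against 6 and 6. Kif26b and Klc4 were picked out after their values were seen. Kif26b, the paralogue of Kif26a, had 3 and 13 reads at the wavefront and 1 and 0 in trailing cells, a scaled ratio of 21 with a 95% counting interval of 3.26 to 880. Exons of Kif26b overlap those of Gm16564, on the other strand, by 909 bases. Wavefront replicate 2, the library with the largest mesenchymal and erythroid sums, gave 13 of its 17 reads. It passed edgeR when no filter was applied (adjusted p = 0.00252), where 0.802% of the 14589 genes with a read were called, and its p in the authors' deposited table, 0.00683, adjusts to 1.00. Klc4 had 2 and 1 reads at the wavefront and 8 and 9 in trailing cells, a ratio of 0.231 with a 95% counting interval of 0.0434 to 0.8. The remaining 10 had 1 to 10 reads each over the 4 libraries.

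Genes that work with these motors gave 0 calls, where 1.74% of the 5759 genes tested were called. For lists this short, 0 calls is near that share. Of 46 genes of dynein, dynactin and motor adaptors, 30 were tested, 0 passed in edgeR with 5 at an unadjusted p under 0.05, and 19 lay below 0, with a median log2 fold change of -0.28 and a range from -1.96 to 0.83. Dync1h1, the dynein heavy chain, had 82 and 47 reads at the wavefront and 82 and 86 in trailing cells (0.20 ± 0.32 SE), and Dctn2, a dynactin subunit, had 77 and 20 against 95 and 88 (-0.55 ± 0.31 SE). Dync1i2, a dynein intermediate chain, had 116 and 18 reads at the wavefront and 66 and 60 in trailing cells (0.36 ± 0.31 SE), and Actr1a, the actin-related filament of dynactin, had 78 and 13 against 106 and 48 (-0.44 ± 0.33 SE).

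Of 38 genes of the spindle and cytokinesis, 35 were tested, 0 passed in edgeR with 4 at an unadjusted p under 0.05, and 25 lay above 0, with a median log2 fold change of 0.18 and a range from -0.74 to 1.00. Over all 5759 genes tested, 1.74% were called, the median was 0.01, 50.6% lay above 0 and 570 had an unadjusted p under 0.05. Top2a, the topoisomerase that untangles chromosomes, had 337 and 94 reads at the wavefront and 243 and 194 in trailing cells (0.36 ± 0.33 SE). Racgap1, the partner of Kif23 in centralspindlin, had 145 and 30 reads at the wavefront and 115 and 86 in trailing cells (0.11 ± 0.31 SE). Cdc20, the activator of the anaphase-promoting complex, was at 0.01 ± 0.30 SE, and Cdca8, of the chromosomal passenger complex, at 0.41 ± 0.31 SE. Of the 7 crest progenitor markers 6 were tested, of which 1 fell and 5 did not pass.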

How the data were processed

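RNA of 4 libraries, 2 per location, was sequenced from sorted cells. Libraries were made with Nextera XT, per the labels' protocols. The submitters' processing notes list STAR 2.5.2b, bcl2fastq 2.17, featureCounts, FastQC 0.11.9, DESeq2 and the GRCm38 (mm10) build. The annotation release and counting settings were not stated there. The authors deposited CPM per library, per the file headers. Every value was a whole multiple of 1 read within 0.01 reads (100% of values), so reads were recovered. Of 27606 rows, 428 with a repeated Entrez identifier were dropped. The authors' deposited BaseMean is a signal (mean scaled reads), the fold change, with its error, was deposited as log2, the deposited Wald statistic is a score, and the deposited p-value is not adjusted.

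The test on CPM itself was limma 3.58.1 with a trend on log2(CPM + 1), mean CPM above 1. The count test on recovered reads was edgeR 4.0.16 (quasi-likelihood, TMM, filterByExpr with 10 reads), the source of the gene values here, with DESeq2 1.42.0 as an alternative, under R 4.3.3. Location was the only term, p-values are two-sided and the threshold was an adjusted p of 0.05. Scripts were tested on simulated data. The floor for a group at 0 was 3 reads over the group. In CPM, 1 read was 1.84 and 3.84 in the wavefront libraries and 1.93 and 2.21 in the trailing libraries. Reads carry no molecular identifiers, so intervals and floors cover counting error only. Coordinates, exon lengths and overlaps are from GENCODE M21, and promoters from RefSeq. A planned search of protein sequences was not run, since none were at hand. Members and lists were chosen with earlier results of these data known. Named genes were all members past the filter, up to 3 others per role by reads, and 4 partners per list by reads where none passed.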

Additional observations from a re-analysis of the deposited data

How the results depend on the processing

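Kif5a was the kinesin called by counts in edgeR, and the number of kinesins called was 1 with DESeq2's size factors, with library totals alone and without ribosomal RNA rows. It was 2 without the filter, and 0 with DESeq2, the authors' deposited p-values or all libraries thinned to the shallowest; leaving out 1 library gave 0 to 1. The number of all genes called was 100 (23 higher, 77 lower), 14 with DESeq2, 13 by the authors' p-values, and 15 after thinning. It ranged from 40 to 143 with 1 library left out. With library totals alone it was 73 (9 higher, 64 lower), and the median of all genes was -0.20 instead of 0.01. Limma on CPM, where that median was -0.35, called 0 genes, but 3 with a pseudocount of 5, 5 with no filter and 44 with TMM-scaled CPM; kinesins were at 0 in each. The causes were not tested.

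The labels do not say whether same-numbered libraries belong together. Deviations of same-numbered libraries correlated at 0.0589 over 5759 genes, which cannot settle it with 2 libraries per group. With the replicate number as a block, the count test called 61 genes and 0 kinesins (Kif5a adjusted p = 0.078 in edgeR), and limma called 52 genes and 1 kinesin.

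The axonal minus mitotic difference of medians was -0.99 and stayed below 0 in all alternatives run, from -1.47 to -0.66 with 1 library left out. The difference in the log2 ratio of reads was -0.78, from -0.998 to -0.565 with 1 library left out, and -1.14 without Kif5b and Kif20a. Mitotic kinesins higher without overlap numbered 6 to 10 of 12 with 1 library left out, and 0 to 2 were lower, a check chosen after seeing the data. Without trailing replicate 1 they were 9 and without trailing replicate 2 they were 8. The share of all genes higher without overlap also went up in these settings, to between 22.0% and 34.1%, against 12.5% with all libraries. The share lower was between 32.8% and 37.3%, against 19.9% with all libraries. Of 280 fold changes of single kinesins under alternatives, 260 kept direction and side of the threshold, 16 changed sign and 4 lost a call. All 4 losses were of Kif5a, and the other tested members had no call to lose. Settings that gave no adjusted p for a gene were not counted. None of those that changed sign was a call. Kif13a was at 0.0532 in the authors' deposited table and 0.0549 with the replicate block, Kif23 at -0.19 with library totals alone, -0.0214 with the block and -0.26 in limma, Kif2a at -0.0575 and -0.11 in the first and last of these, and Kif26a at 0.0278 after thinning. With 1 library left out, Kif13a ranged from -0.72 to 0.85, Kif1b from -0.28 to 0.0571, Kif21b from -0.0424 to 1.11, Kif23 from -0.10 to 0.16, Kif2a from -0.0812 to 0.42, Kif2c from -0.17 to 0.99 and Kif4 from -0.0219 to 1.13. Depth limits the rest: the members below the filter had at most 28 reads each over the 4 libraries.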
